A study of Mus musculus with 6 samples.

Results

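The genes described here are those of mitochondrial complex I, chosen by name: every row of the deposited count tables whose gene symbol starts with Nduf. Of 24982 gene symbols, 47 met this rule, 39 named as subunits and 8 as assembly factors (Ndufaf1 to Ndufaf8). They were compared in KMWT1, a mouse glioma cell line, between 3 samples transfected with control siRNA (samples 1, 2 and 3) and 3 samples transfected with YY1 siRNA, a pool of siRNAs (samples 4, 5 and 6). All 6 samples were taken 48 hours after transfection and came from this 1 cell line. The labels name no allele. They do not say whether samples are separate cultures, and the p-values below cover only the spread among these samples, which may be technical.

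Complex I, NADH:ubiquinone oxidoreductase, is the entry point of the respiratory chain. Its peripheral arm, which reaches into the mitochondrial matrix, takes electrons from NADH and passes them along iron-sulfur clusters to ubiquinone. Its membrane arm pumps protons. Core subunits carry out this chemistry and accessory subunits surround them, while assembly factors help to build the complex and are not part of the finished enzyme. The core subunits of the membrane arm are encoded in mitochondrial DNA, and those genes were not analysed here. YY1, a zinc finger protein, binds DNA, activates some genes and represses others, and is known in other tissues as a partner of PGC-1 coactivators at mitochondrial genes. The comparison asks how the messages for complex I stood when YY1 was lowered.

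The deepest library, control siRNA sample 1, held 20644057 counts in genes, and the shallowest, YY1 siRNA sample 6, held 15738457. Sample 6 stood apart from the rest: its chi-square per degree of freedom against the other YY1 siRNA samples was 23.8 to 32.5, while the other pairs within a group had 3.13 to 11.2. Of 8 glioma and astrocyte markers, 5 stood at 10 CPM or more in control samples and 3 (Olig2, Gfap and Aldh1l1) under 1 CPM. Under 1 CPM were also 5 of 6 neuron, 4 of 5 oligodendrocyte, 6 of 6 microglia and 3 of 4 endothelial markers. Cdh5 was the endothelial exception, at 57.5, 51.8 and 50.5 CPM in control samples and 48.2, 51.1 and 43.0 CPM in YY1 siRNA samples.

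Yy1 itself stood at 127, 128 and 126 CPM in control siRNA samples 1, 2 and 3 and at 81.2, 77.6 and 78.6 CPM in YY1 siRNA samples 4, 5 and 6. The values below follow this order of samples, and CPM is the count of a gene scaled to the normalised size of its library. Yy1 fell to 62.3% of control (95% interval 56.5% to 68.6%, edgeR adjusted p 0.00154). In bulk RNA, fewer cells with a message and less of it per cell cannot be told apart.

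The promoters of complex I genes were searched for the YY1 motif because YY1 was the factor lowered. RefSeq windows on GRCm38, from 250 bases before to 50 after the start of a transcript, matched 40 of the 47 symbols. Those with no window included Ndufa2, Ndufa4l2, Ndufaf6, Ndufb4c, Ndufb9 and Ndufs1. The motif AANATGGCG, searched on both strands, was present for 8 of these 40 genes (20%), against 590 of 9576 tested genes with a window (6.2%). The 8 matches are shown 5′ to 3′ with 6 bases on either side and the motif in capitals, so that their shared letters can be compared:
Ndufs7 (chr10:80249467-80249487, plus strand): gaggccAAGATGGCGgcgctg
Ndufc1 (chr3:51408919-51408939, minus strand): cggaacAAGATGGCGccgtcc
Ndufaf8 (chr11:120098938-120098958, plus strand): gggcccAAGATGGCGgcgccc
Ndufa7 (chr17:33824621-33824641, plus strand): ggaaggAATATGGCGtccgct
Ndufs4 (chr13:114388045-114388065, minus strand): tacaggAAGATGGCGgcggtc
Ndufs6 (chr13:73328435-73328455, minus strand): accggcAAGATGGCGgcggtg
Ndufa9 (chr6:126849101-126849121, minus strand): tgggagAAGATGGCGgccgcc
Ndufb11 (chrX:20617816-20617836, minus strand): caacacAAAATGGCGacgaga
All 8 lay on the strand of their gene. In 6 of them, all but Ndufaf8 and Ndufb11, the ATG of the motif is an annotated start codon of the gene, so the match also holds the start of the protein. The palindromic motif of the factor NRF1, which regulates many respiratory genes, was present for 3 of the 40 genes (7.5%, against 2.4% of tested genes with a window): Ndufa11, Ndufaf4 and Ndufaf5. The ETS motif CCGGAAGT was present for Ndufs3 alone (2.5%, against 9.5%), and CCAAT for 14 (35%, against 43.6%). A match is a string of letters and was not tested for binding. Among tested members, the 8 with the YY1 motif had a median log2 fold change of 0.28 (range -0.0094 to 0.47), and the 31 with a window and no motif had 0.17 (range -0.17 to 0.40). Without sample 6 these medians were 0.11 (range -0.11 to 0.21) and 0.0016 (range -0.26 to 0.16), and the difference between the 2 sets was not tested.

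Of the 47 genes, 44 passed the filter on low counts and were tested, 36 subunits and all 8 assembly factors. Ndufa4l2, a paralog of Ndufa4 that hypoxia induces, had 4, 1, 0, 2, 1 and 1 counts in samples 1 to 6. Ndufb4c, a processed pseudogene identical to Ndufb4 over its 390 bases, had 0 counts in 5 samples and 1 in sample 6. Ndufs5, a subunit of the membrane arm, is listed at 0 in all 6 samples, while BC002163, which is 99.4% identical to it over 319 bases, has a row of its own with 18 to 31 counts. The counts of Ndufs5 are therefore uncertain. Ndufa4l2 was too low to compare, and reads of Ndufb4c cannot be told apart from those of Ndufb4.

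Among tested subunits, levels per length in control siRNA samples spread widely. Ndufb9, an accessory subunit at the far end of the membrane arm, was highest at 365 ± 62.0 CPM per kilobase of transcript (SD, n = 3), and Ndufb4, also of the membrane arm, was lowest at 19.6 ± 2.86. Reads in the 390 bases that Ndufb4 shares with Ndufb4c may not all have been counted for it, so this lowest place is uncertain. Ndufb9 shares 201 exonic bases with Gm49356 on the same strand, so its level is uncertain too. Ndufa7 and Ndufa6 of the peripheral arm followed Ndufb9 at 254 ± 49.8 and 236 ± 7.38 CPM per kilobase, and these 2 do not differ beyond their spread. Core subunits lay lower than Ndufb9, Ndufa7 and Ndufa6, among them Ndufv1 at 35.9 ± 0.768 and Ndufv2 at 78.4 ± 9.29. Low levels were not confined to core subunits. The accessory subunit Ndufa5 stood at 33.8 ± 3.32, and 15 subunits, core and accessory, stood under 60 CPM per kilobase. Assembly factors had the lowest levels, from 2.28 ± 0.279 CPM per kilobase for Ndufaf4 to 15.8 ± 0.947 for Ndufaf8, and none reached the lowest tested subunit. A level per length depends on the transcript taken for the gene.

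No complex I gene passed the test. With edgeR, 0 of 36 subunits and 0 of 8 assembly factors had an adjusted p under 0.05, beside 0.00823% of the 12148 genes tested (Yy1 alone), and DESeq2 and limma-voom also called 0 of the 44. The smallest adjusted p was 0.267 with edgeR and 0.0608 with DESeq2, both for Ndufa2. At an unadjusted p under 0.05, 6 subunits and 2 assembly factors were on the higher side with YY1 siRNA (18.2% of the 44, against 5.38% of all genes tested) and 0 on the lower side (against 5.46%). The fitted change was above 0 for 29 of 36 subunits and 6 of 8 assembly factors, together 79.5%, against 50.2% of all genes tested. The median log2 fold change was 0.18 for subunits and 0.11 for assembly factors, against 0.00070 for all genes tested. In 6 of the 44 genes (13.6%) all YY1 siRNA samples lay above all control samples, and in 1 (2.3%) all lay below, against 7.36% and 8.91% of all genes tested. The 95% intervals of the 44 genes lay between 0.708-fold (the lower bound of Ndufaf6) and 1.97-fold (the upper bound of Ndufa7).

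**Figure D1:**
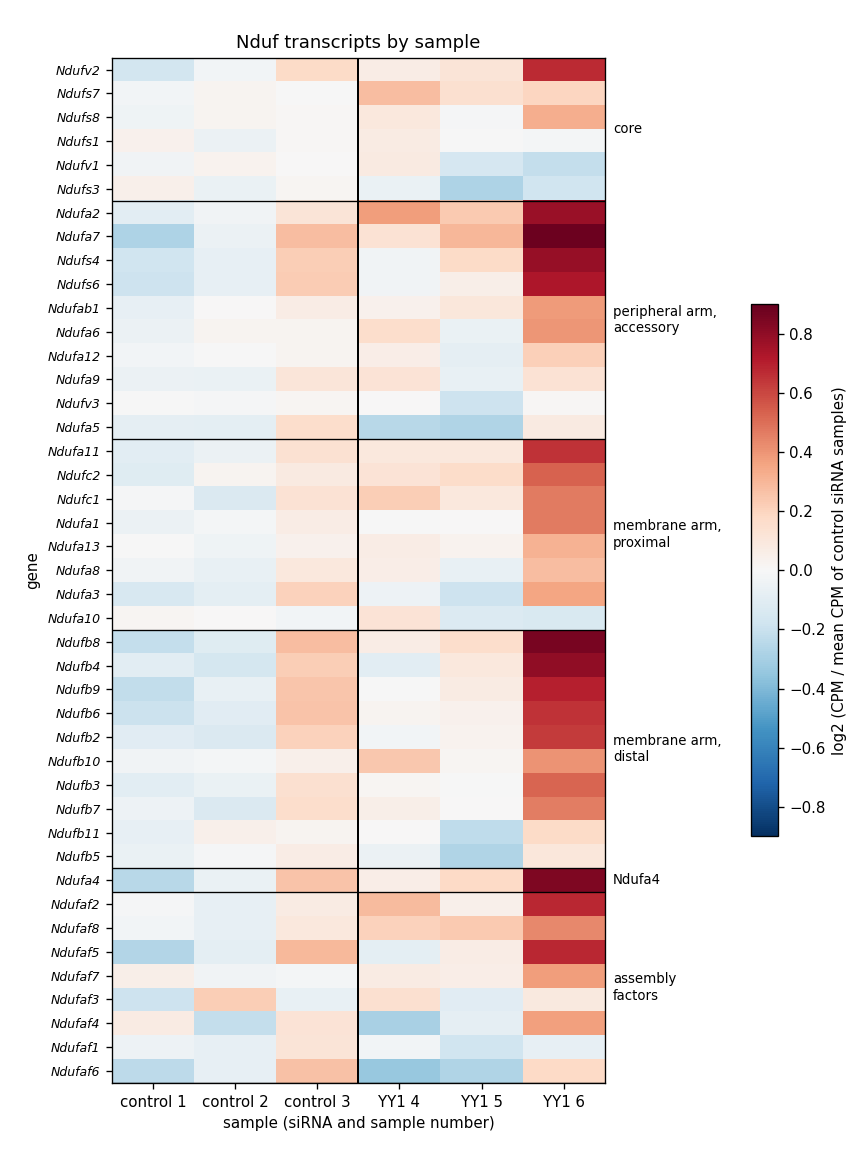
Level of 43 tested Nduf genes (rows, grouped by place in the complex) in the 6 samples (columns). Colour gives log2 of CPM over the mean CPM of the 3 control siRNA samples. YY1 siRNA sample 6 was the highest sample for 33 of the 43 genes.

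Much of this upward shift rested on 1 library. YY1 siRNA sample 6 was the highest of the 6 samples for 33 of 44 genes (75%), against 27.1% of all genes tested. Control siRNA sample 1 was the lowest for 20 of the 44, and the share over all genes was not computed for this. Relative to the control mean, the median subunit stood 0.061 higher on the log2 scale in sample 4, 0.026 in sample 5 and 0.40 in sample 6. Medians for assembly factors were 0.023, -0.018 and 0.38. Without sample 6, the median log2 fold change was 0.027 for subunits and 0.0044 for assembly factors. Fitted changes were then above 0 for 28 of the 44 genes and below 0 for 16, and 7 genes changed sign. Over all genes, 5954 of 12148 were then above 0. At an unadjusted p under 0.05 there were then 3 genes on the higher side, Ndufa2 and Ndufs7 among them, and 1 on the lower side, Ndufa5. The smallest adjusted p was 0.253 (edgeR). All of these genes were subunits, 8.33% of subunits on the higher side and 2.78% on the lower side, against 3.17% and 5.04% of all genes tested. Sample 6 also had the fewest counts in genes, and with sample 5 the largest shares of counts assigned to no gene (11.3% and 10.7%, against 7.87% to 9.03% in the other 4 samples). With that share as a covariate the medians were 0.059 for subunits and 0.016 for assembly factors. Fitted changes were then above 0 for 29 of 36 subunits and 4 of 8 assembly factors, against 6131 of 12148 genes tested. At an unadjusted p under 0.05, 3 subunits (8.33%) and 0 assembly factors were on the higher side, against 2.89% of all genes tested. On the lower side there were 0 of either, against 4.82%. Of 6 RNAs kept in the nucleus, 3 were tested, and their median level relative to each gene's mean was 0.48 on the log2 scale in sample 6, 0.35 in sample 5, -0.61 in sample 4 and -0.19 to 0.15 in control samples. Malat1 stood at 515, 456 and 615 CPM in control and 362, 704 and 770 CPM in YY1 siRNA samples. The deposited counts of samples 1 to 5 are marked as combined and those of sample 6 are not. What was combined is not known. The part of these differences between libraries in the result was not tested.

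**Figure D2:**
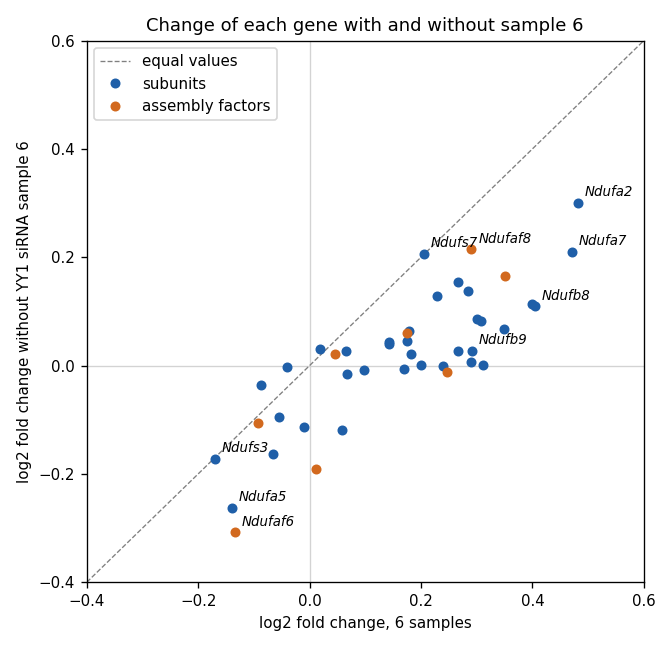
Log2 fold change of 43 tested Nduf genes with all 6 samples (horizontal) and without YY1 siRNA sample 6 (vertical), with the line of equal values. Most points lie below the line, 39 of the 43 plotted, while Ndufs7 and Ndufs3 lie near it.

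Among the core subunits encoded in the nucleus, 0 of 7 passed the test, and 5 had a fitted change above 0 (median 0.14). Ndufs7, which carries the last iron-sulfur cluster before ubiquinone, stood at 57.3, 59.2 and 58.0 CPM in control and 70.6, 64.1 and 66.3 CPM in YY1 siRNA samples. Every YY1 siRNA sample lay above every control sample, and sample 4, not sample 6, was the highest. Its log2 fold change was 0.20 (SE 0.068, adjusted p 0.331 by edgeR). Without sample 6 it was 0.21, and with offsets for length and GC content 0.11.

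Ndufs3, a structural subunit of the peripheral arm, pointed the other way. It stood at 42.3, 39.3 and 41.5 CPM in control and 39.3, 33.9 and 36.2 CPM in YY1 siRNA samples, and its highest YY1 siRNA value, in sample 4, lay just under the lowest control value. The log2 fold change was -0.17 (SE 0.079, adjusted p 0.463 by edgeR), and -0.17 without sample 6. An annotated sequence, Gm12251, is 98.6% identical to Ndufs3 over 792 bases, so its counts are uncertain. Ndufs8, which carries iron-sulfur clusters on the path to ubiquinone, stood at 53.2, 55.5 and 55.1 CPM and at 58.4, 54.3 and 68.4 CPM. The groups overlapped, and the log2 fold change of 0.14 (SE 0.086) was 0.040 without sample 6.

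The core subunits that take up electrons from NADH showed no common direction. Ndufv1, which binds NADH and the flavin, stood at 58.4, 60.9 and 59.7 CPM in control and 63.2, 53.7 and 51.5 CPM in YY1 siRNA samples (log2 fold change -0.087, SE 0.083). Ndufs1, the largest peripheral subunit, stood at 106, 99.6 and 104 CPM and at 109, 103 and 102 CPM (0.018, SE 0.067). Both overlapped between groups. Ndufv2, their iron-sulfur partner, stood at 119, 131 and 150 CPM and at 139, 144 and 212 CPM. Sample 6 carried its log2 fold change of 0.31, which was 0.083 without that sample. Ndufs1 shares 498 exonic bases with Eef1b2 and Ino80dos on the other strand, so the counts of Ndufs1 are uncertain.

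Of the 10 accessory subunits of the peripheral arm, 8 had a fitted change above 0, with a median of 0.18. Ndufa2, a small subunit with a thioredoxin-like fold that sits beside Ndufs1, had the largest fitted change of the tested subunits. Its levels were 83.8, 87.7 and 97.3 CPM in control and 116, 106 and 154 CPM in YY1 siRNA samples, without overlap. The log2 fold change was 0.48 (SE 0.13, adjusted p 0.267 by edgeR), and 0.30 without sample 6, where the adjusted p was 0.253. DESeq2 gave an adjusted p of 0.0608, the lowest over 15 alternatives, and the highest was 0.775, without control siRNA sample 1. Ndufa2 shares 66 exonic bases with Tmco6 on the other strand.

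Ndufa7, also of the peripheral arm, stood at 111, 129 and 163 CPM and at 147, 165 and 247 CPM. Control sample 3 lay above YY1 siRNA sample 4, so the groups overlapped, and the log2 fold change of 0.47 (SE 0.22) was 0.21 without sample 6. Gm9711 is 91.8% identical to Ndufa7 over 342 bases. Ndufa5 lay on the lower side, at 28.0, 27.8 and 33.0 CPM in control and 25.0, 24.6 and 31.3 CPM in YY1 siRNA samples. Samples 4 and 5 lay below every control sample and sample 6 did not. Its log2 fold change was -0.14 (SE 0.11, adjusted p 0.622 by edgeR), and -0.26 without sample 6 (edgeR adjusted p 0.462). Ndufv3, an accessory subunit next to Ndufv1, stood at 78.4, 78.0 and 79.6 CPM and at 78.8, 69.2 and 79.3 CPM, with overlap.

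In the proximal part of the membrane arm, next to the peripheral arm, 7 of 8 tested subunits had a fitted change above 0 with a median of 0.16. Ndufc2, an accessory subunit of this part, stood at 75.2, 82.5 and 86.1 CPM in control and 88.7, 91.1 and 118 CPM in YY1 siRNA samples, without overlap. Ndufc1, its partner, stood at 54.2, 49.9 and 59.7 CPM and at 63.7, 58.4 and 75.3 CPM, where sample 5 fell below control sample 3. The log2 fold changes were 0.28 (SE 0.11, adjusted p 0.388 by edgeR) for Ndufc2 and 0.27 (SE 0.099, adjusted p 0.379 by edgeR) for Ndufc1. Without sample 6 these were 0.14 and 0.15. Ndufa10, a subunit on the matrix face of the membrane arm, stood at 78.0, 77.2 and 75.4 CPM and at 83.7, 70.5 and 70.1 CPM. The groups overlapped, with a log2 fold change of -0.040 (SE 0.080).

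In the distal part of the membrane arm, sample 6 was the highest sample for 10 of 10 subunits, and 8 of 10 had a fitted change above 0 with a median of 0.23. Ndufb10, a subunit stabilised by disulfide bonds, stood at 61.0, 61.7 and 64.3 CPM in control and 73.6, 63.1 and 82.5 CPM in YY1 siRNA samples. Its log2 fold change was 0.23 (SE 0.091, adjusted p 0.406 by edgeR), and 0.13 without sample 6. Ndufb9, the most abundant, stood at 220, 245 and 305 CPM and at 256, 270 and 418 CPM. Only sample 6 lay above control sample 3, and the log2 fold change of 0.29 (SE 0.21) was 0.027 without sample 6. Ndufb4 had the same pattern, at 17.8, 17.0 and 22.2 CPM and at 17.8, 20.3 and 33.0 CPM, with 0.31 (SE 0.23) and 0.00073. Ndufb5 and Ndufb11 were the 2 distal subunits with a fitted change below 0. Ndufb5 stood at 69.2, 71.4 and 75.5 CPM and at 69.5, 59.7 and 77.5 CPM. Ndufb11 stood at 81.1, 87.7 and 86.8 CPM and at 85.5, 72.6 and 96.0 CPM. In both, sample 5 was the lowest and sample 6 the highest of the 6. Gm6444 is 96.9% identical to Ndufb11 over 456 bases, and Ndufb11 shares 117 exonic bases with Rbm10 on the other strand. Ndufb5 shares 616 exonic bases with Mrpl47 on the other strand, so the counts of both subunits are uncertain.

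Ndufa4 carries the name of a complex I subunit and is known as a subunit of cytochrome c oxidase. It stood at 82.9, 94.3 and 118 CPM in control and 102, 111 and 176 CPM in YY1 siRNA samples. The groups overlapped, and the log2 fold change of 0.40 (SE 0.22) was 0.11 without sample 6.

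**Figure D3:**
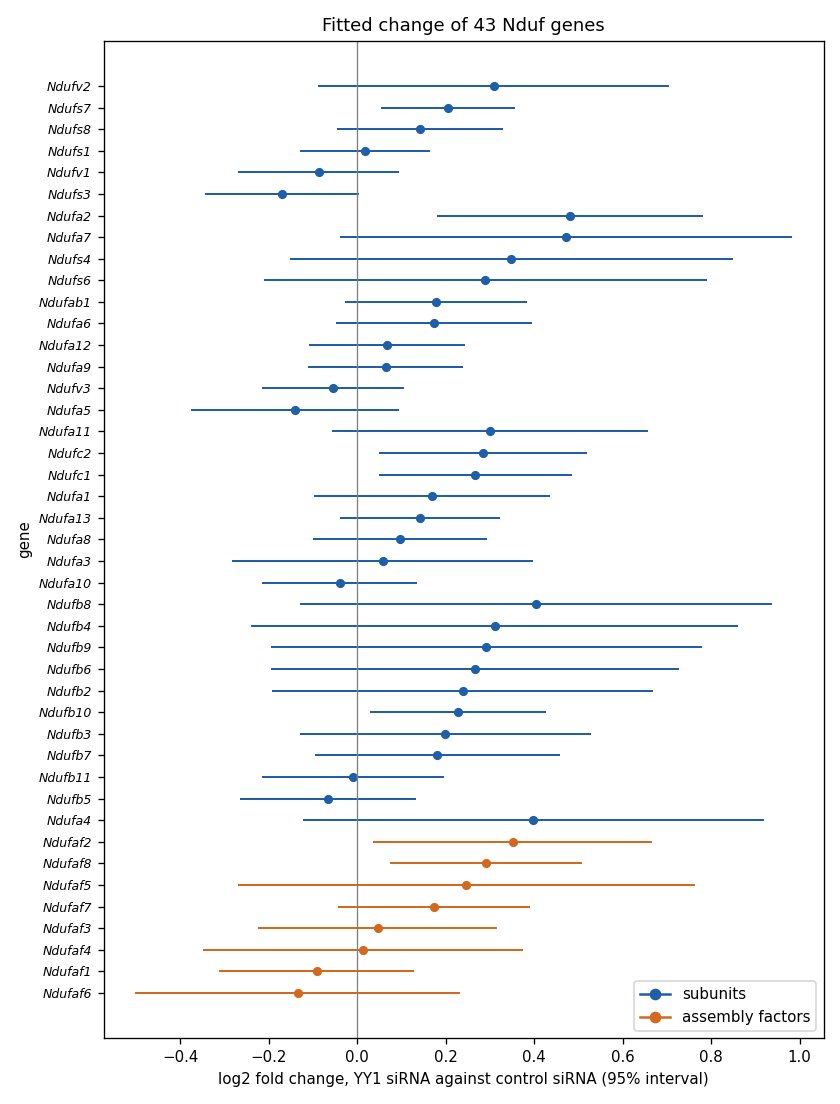
Fitted log2 fold change of 43 tested Nduf genes (rows) with 95% intervals that are not adjusted for the number of genes, subunits in blue and assembly factors in orange. The points run from -0.17 for Ndufs3 to 0.48 for Ndufa2, and 7 of the 43 intervals lie wholly above 0.

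Among assembly factors, 0 of 8 passed the test and the fitted changes ran from -0.13 to 0.35. Ndufaf8, which stabilises the arginine hydroxylase Ndufaf5, stood at 12.2, 11.7 and 13.2 CPM in control and 14.3, 14.5 and 16.6 CPM in YY1 siRNA samples, without overlap. Its log2 fold change was 0.29 (SE 0.099, adjusted p 0.344 by edgeR), and 0.21 without sample 6. Ndufaf5, which modifies Ndufs7, stood at 9.19, 10.4 and 13.5 CPM and at 10.4, 11.5 and 17.6 CPM, with overlap. Its log2 fold change of 0.25 (SE 0.22) was -0.012 without sample 6. Ndufaf7, a methyltransferase that acts in the assembly of complex I, stood at 19.4, 18.4 and 18.5 CPM and at 19.8, 19.6 and 24.4 CPM. The groups did not overlap, though samples 4 and 5 lay just above control sample 1, and the log2 fold change of 0.17 (SE 0.099, adjusted p 0.521 by edgeR) was 0.061 without sample 6.

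Ndufaf2, a paralog of Ndufa12 that acts late in the building of the peripheral arm, had the largest fitted change of the assembly factors. It stood at 10.5, 10.1 and 11.2 CPM in control and 12.9, 10.9 and 17.0 CPM in YY1 siRNA samples, where sample 5 fell among the controls. The log2 fold change was 0.35 (SE 0.14, adjusted p 0.420 by edgeR), and 0.16 without sample 6. B230220B15Rik covers 1955 bases of its exons on the other strand, so its counts are uncertain. Ndufaf1, of the assembly complex for the membrane arm, stood at 11.6, 11.4 and 13 CPM and at 11.8, 10.6 and 11.4 CPM. Ndufaf3 and Ndufaf4 act together on the ubiquinone-binding region. Ndufaf3 stood at 9.57, 12.7 and 10.4 CPM and at 12, 10.1 and 11.6 CPM. Ndufaf4 stood at 8.71, 7.11 and 8.99 CPM and at 6.76, 7.81 and 10.7 CPM. Ndufaf6, which acts early on the membrane arm, stood at 6.30, 7.06 and 8.94 CPM and at 5.87, 6.16 and 8.42 CPM. Samples 4 and 5 had its lowest values, and its log2 fold change of -0.13 (SE 0.17) was -0.31 without sample 6. All 4 of these factors overlapped between groups.

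The fitted changes of complex I genes also went with transcript length. Of 24 tested members with a transcript under 1000 bases, 22 were above 0, with a median of 0.25. Of 20 longer ones 13 were, with a median of 0.055. The same held over all genes tested: 697 of 899 genes under 1000 bases were above 0 (median 0.15), against 5349 of 11159 longer genes (median -0.0073). Across the 44 members, Pearson's r between log2 length and the level relative to the gene's mean was -0.52 in sample 6 and 0.53 in control sample 1. It was 0.38, -0.027, 0.075 and -0.030 in samples 2, 3, 4 and 5. Over 12058 tested genes with a known length it was 0.23, 0.17 and -0.081 in control samples 1, 2 and 3. In YY1 siRNA samples 4, 5 and 6 it was -0.098, 0.21 and -0.31 over those genes. The points share libraries and the 6 values of a gene sum to 0, so these are descriptions. With offsets for length and GC content the medians were 0.074 for subunits and 0.079 for assembly factors. Above 0 were 24 of 36 subunits and 5 of 8 assembly factors, against 5906 of 12148 genes tested. At an unadjusted p under 0.05, 4 subunits (11.1%) were then on the higher side and 3 (8.33%) on the lower side, against 6.35% and 7.33% of all genes tested. The 3 on the lower side were Ndufs3, Ndufa5 and Ndufb5 (edgeR adjusted p 0.204, 0.153 and 0.264). Of assembly factors, 1 was on the higher side, Ndufaf8 (edgeR adjusted p 0.364), and 0 on the lower side. Ndufa2 had an adjusted p of 0.0710 with these offsets and a log2 fold change of 0.30.

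**Figure D4:**
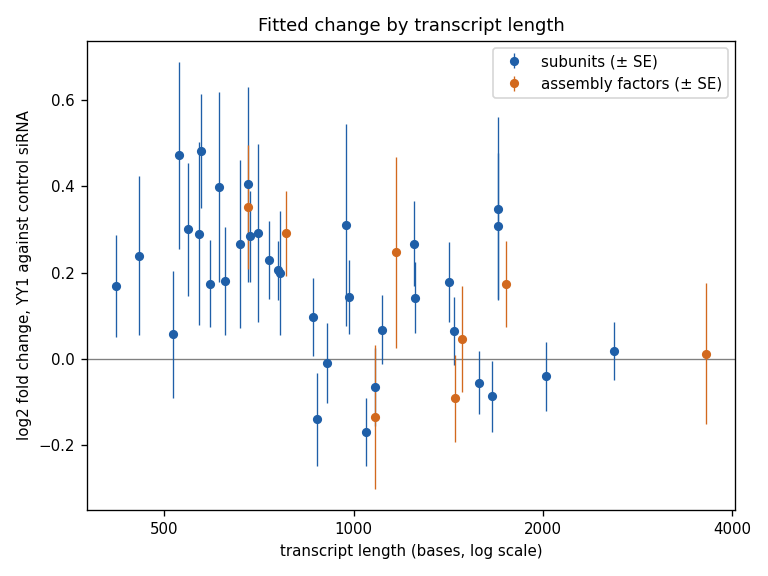
Log2 fold change (± SE) of 43 tested Nduf genes against transcript length on a log scale, subunits in blue and assembly factors in orange. Of the 24 genes under 1000 bases, 22 lie above 0, and of the 19 longer ones plotted 12 do.

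Genes that work with complex I under other names did not pass the test either. Of 10 further assembly factors, 0 passed, 7 had a fitted change above 0 and the median was 0.083. Dmac2, named as a component of distal membrane arm assembly, stood at 6.20, 5.09 and 4.81 CPM in control and 3.67, 3.77 and 3.85 CPM in YY1 siRNA samples. All YY1 siRNA samples lay below all controls, and the fitted change was -0.52 (SE 0.15, adjusted p 0.261 by edgeR). Tmem70, which helps to assemble complex I and ATP synthase, stood at 51.4, 54.7 and 64.8 CPM and at 58.5, 67.3 and 94.1 CPM, with overlap, and its log2 fold change of 0.36 (SE 0.18) was 0.14 without sample 6. Nubpl, which delivers iron-sulfur clusters to complex I, had a log2 fold change of -0.17 (SE 0.10), and -0.098 without sample 5. Tmem126b, a membrane arm assembly factor, had 0.19 (SE 0.11), which was 0.097 without sample 6 and 0.092 without control sample 1.

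Among 10 tested regulators of mitochondrial genes, 0 passed and the median was -0.017. Polrmt, the RNA polymerase of mitochondria, stood at 24.3, 26.6 and 24.3 CPM in control and 21.7, 21.8 and 20.9 CPM in YY1 siRNA samples. Esrra, a nuclear receptor that drives respiratory genes, stood at 54.4, 54.1 and 57.4 CPM and at 62.8, 60.7 and 64.1 CPM. Neither overlapped between groups, with log2 fold changes of -0.22 (SE 0.081, adjusted p 0.362 by edgeR) and 0.18 (SE 0.067, adjusted p 0.388 by edgeR). Nrf1 stood at 38.1, 39.7 and 39.8 CPM and at 40.1, 33.8 and 36.0 CPM. Among PGC-1 genes, Ppargc1b was scarce at 0.748 ± 0.163 and 0.539 ± 0.176 CPM (SD, n = 3), and Ppargc1a was too low to be tested. Their relative Pprc1 was not scarce, at 16.3, 17.0 and 17.2 CPM in control and 15.6, 17.6 and 17.6 CPM in YY1 siRNA samples.

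The other respiratory complexes had values much like those of complex I, and no difference between complexes was tested. With edgeR, 0 of 9 genes of complex III, 0 of 12 of complex IV and 0 of 17 of ATP synthase passed, with medians of 0.13, 0.27 and 0.22. Sample 6 was the highest sample for 8, 11 and 11 of them. As a list, the core subunits of complex I stood at 0.024 in sample 6, on a log2 scale relative to each gene's mean over the 6 samples, beside 0.30 for peripheral accessory, 0.34 for proximal and 0.48 for distal membrane arm subunits. The median transcript of the core subunits was 1623 bases long, against 992.5, 772 and 718 bases in those groups.

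**Figure D5:**
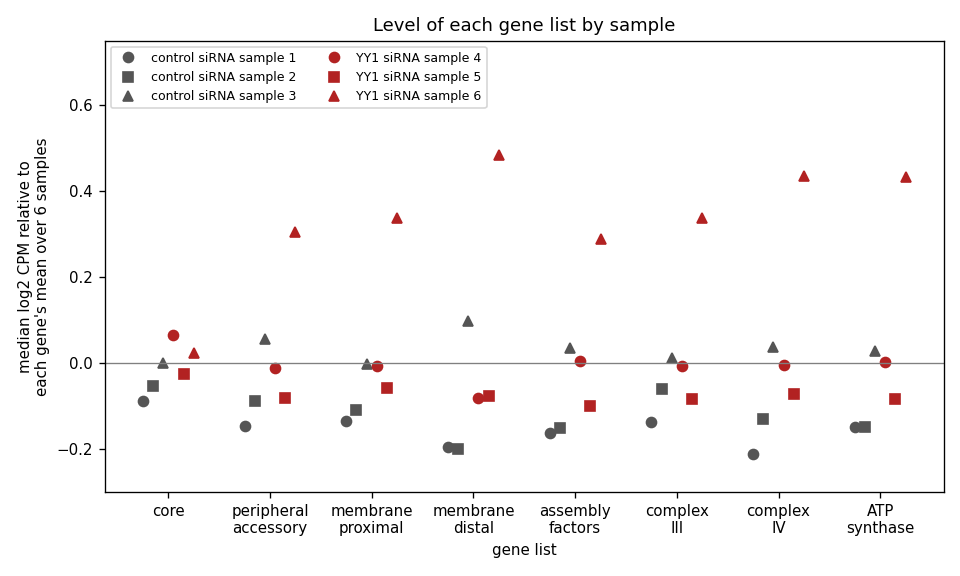
Median log2 CPM of each gene list, relative to each gene's mean over the 6 samples, in control siRNA samples (grey) and YY1 siRNA samples (red), with 1 symbol per sample. Sample 6 (red triangles) is the highest for 7 of the 8 lists drawn, and sample 4 is for the core subunits.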

How the data were processed

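The authors deposited read counts per gene symbol for 6 RNA-seq samples, as whole numbers with no normalization. Per the submitters' processing notes, the tools were STAR 2.6.1a and edgeR 3.30.0 and the build mm10. No source used here names the counter, the annotation or the strand setting. Reads of 17 members that overlap a gene on the other strand may thus be shared with it. On the same strand, 3 members overlap a gene, and their reads may also be shared. A copy of at least 90% identity over at least 50% of the transcript was annotated for 9 members. The rows of counts in no gene (7.87% to 11.3%) and ambiguous counts (1.01% to 1.15%) stayed out of library sizes and tests.

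The test was the two-sided quasi-likelihood test in edgeR 4.0.16 (under R 4.3.3) on the counts, with filterByExpr, TMM normalization and robust dispersion. P-values were adjusted by Benjamini and Hochberg over 12148 genes, with a threshold of 0.05. Intervals of 95% came from its F statistic. Alternatives were RLE factors, library size alone, other filters, DESeq2 1.42.0, limma-voom (limma 3.58.1), no robust estimation, length and GC offsets (mgcv 1.9.3), the no-gene share as a covariate and leaving out each sample. The test was checked on simulated counts. Gene models came from GENCODE M21, which matched 98.0% of symbols and all 47 members, with the shortest of equally ranked principal transcripts as the length. One member is counted but not reported here by name or drawn in plots of single genes. Members and lists were chosen with earlier results of these data known.

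Genes named with values are the core subunits, the assembly factors, Ndufa4 and the 5 other subunits of smallest p in each direction. Also named are the subunits of highest and lowest level per length, untested members, up to 4 genes of each related list, and Pprc1.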

Additional observations from a re-analysis of the deposited data

Results flagged for a closer look

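Counts that fell in no gene, left out of every comparison, made up 11.3% of YY1 siRNA sample 6 and 10.7% of sample 5. The highest control siRNA sample had 9.03%, and YY1 siRNA sample 4 had 7.87%.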

How the results depend on the processing

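No paired analysis was possible because controls are numbered 1 to 3 and YY1 siRNA samples 4 to 6. In all 15 alternatives, 0 subunits and 0 assembly factors passed. The median log2 fold change without each sample in turn was 0.027 to 0.26 for subunits and 0.0044 to 0.19 for assembly factors, lowest without YY1 siRNA sample 6 in both. Yy1 kept its direction and passed throughout (-0.70 to -0.67 without each sample, highest edgeR adjusted p 0.0439). Over all genes, 7 passed with library size alone, 83 without a filter on low counts, 19 with DESeq2 and 17 with length and GC offsets, and 1 to 41 without each sample (41 without YY1 siRNA sample 4, 3 without sample 6, 2 without control siRNA sample 3). The cause was not tested.

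Of 36 named genes, those whose fitted value changed sign had not passed in any setting. With the no-gene share as a covariate, Ndufa10 was 0.062, Ndufaf4 -0.20, Ndufaf5 -0.047, Ndufb4 -0.0099 and Ndufv1 0.012. Ndufaf4 was also -0.011 with library size alone, -0.013 with limma-voom and -0.068 with length and GC offsets, and Ndufs1 was -0.0037 with library size alone and -0.0015 with those offsets. Without each sample in turn, Ndufa10 ranged from -0.12 to 0.0014, Ndufaf3 from -0.041 to 0.17, Ndufaf4 from -0.19 to 0.16, Ndufaf5 from -0.012 to 0.42, Ndufaf6 from -0.31 to 0.018, Ndufb11 from -0.11 to 0.091, Ndufb5 from -0.16 to 0.028, Ndufs1 from -0.0077 to 0.039 and Ndufv3 from -0.095 to 0.0061. Ndufa4l2, with at most 4 counts in a library, was too low to compare at these depths.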
